A study of Caenorhabditis elegans with 9 samples.

Results

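The genes described here are the *ugt* genes of the nematode *Caenorhabditis elegans*, which encode the UDP-glucuronosyltransferase family. They were chosen by name and level: every gene whose WormBase symbol starts with *ugt* was taken, and those whose FPKM averaged 0.5 or more across the 9 libraries were kept. FPKM, fragments per kilobase of transcript scaled to sequencing depth, is a level that can be compared between genes of different length. Of 67 *ugt* genes among the 20541 genes measured, 60 met the limit and 7 did not. Just inside it were *ugt-15* with a mean of 0.553 FPKM and *ugt-35* with 0.597 FPKM, and just outside it were *ugt-14* with 0.438 FPKM and *ugt-67* with 0.350 FPKM.

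UDP-glucuronosyltransferases are membrane enzymes of the endoplasmic reticulum that attach a sugar, taken from a UDP-sugar, to small fat-soluble molecules. The conjugates are more soluble in water and can be pumped out of the cell, so these enzymes form the second phase of detoxification after cytochrome P450 enzymes have oxidised a compound. In nematodes the sugar is often glucose, and the intestine is a main site of this chemistry. The compound that each single worm enzyme acts on is mostly not established, so the genes below are ordered by level, by response and by place in the genome.

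The study sequenced RNA from whole worms in 3 groups of 3 libraries. Wild type (WT) worms of the strain N2 were raised at 20°C on *E. coli* OP50, the standard laboratory food. They were collected after 24 hours on either OP50 or *P. aeruginosa* PA14, a Gram-negative bacterium that infects the intestine. A move to 25°C as young adults is taken from the infection methods of the study. Its RNA sequencing methods give only the 24 hours of infection. The third group was the mutant *egl-44(mt2247)*, backcrossed into N2 and kept on OP50. It is taken here to have had the same 24 hours at 25°C as young adults. The text of the study describes no RNA sequencing of this mutant, so its age and exposure are not given there. *egl-44* encodes the worm TEAD transcription factor, the DNA-binding partner of YAP-1. All 9 libraries are labelled adult. The comparison of PA14 with OP50 asks how the genes differ in infected worms. There, infection and the change of food bacterium cannot be told apart. The comparison of the mutant with WT worms on OP50 asks how they differ in uninfected worms that carry the *egl-44* allele. The mutant on PA14 was not analysed here. Both comparisons use the same OP50 libraries, so they are not independent and their values are given side by side only. The sources used here do not say whether replicates were separate cultures or whether mutant and WT libraries were prepared together, so p-values measure the spread between these libraries only. In whole worms, fewer cells of a type and less RNA per cell cannot be told apart.

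The libraries held between 13638251 and 17830345 reads in genes. PA14 replicate 2 stood apart from its group: its correlation across genes with PA14 replicates 1 and 3 was 0.927 and 0.870, against 0.964 between those replicates. It also had the highest summed level of 10 early embryo markers, 18.6 FPKM against 1.55 and 3.97 FPKM in the other PA14 libraries. On OP50 these markers summed to 0.676 to 1.19 FPKM, and the stage of the WT worms was not tested. OP50 replicate 3, a control in both comparisons, differed from its group to a smaller degree. Its correlation with OP50 replicates 1 and 2 was 0.937 and 0.956, against 0.984 between those replicates. It was the lowest OP50 library for 30 of the 60 *ugt* genes. The *egl-44* libraries went against their adult label in several markers. *col-19*, a collagen of the adult cuticle, measured 3.64 to 5.54 FPKM in them and 1475 to 2221 FPKM in WT worms on OP50. The 13 oocyte and eggshell markers summed to 35.9 to 81.8 FPKM in the mutant and to 1838 to 4374 FPKM in WT worms on OP50, with none at 0 throughout the mutant. The 39 sperm markers summed to 24.1 to 253 FPKM in the mutant and to 13509 to 17848 FPKM in WT worms on OP50, with 2 of them at 0 in all 3 mutant libraries. The sum of 253 FPKM was that of *egl-44* replicate 3, against 24.1 and 35.1 FPKM in replicates 1 and 2. Genotype, germline content and stage therefore cannot be told apart in that comparison, nor can any difference in library preparation. The transcript of *egl-44* itself measured 16.1, 21.5 and 15.97 FPKM in WT worms on OP50 and 32.5, 37.8 and 28.2 FPKM in the mutant, so its level does not check the label, and the sources used here do not give the effect of the allele on the RNA.

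Most *ugt* genes were active at a low to moderate level in every library. The means over the 9 libraries ran from 0.553 to 55.8 FPKM with a median of 6.13 FPKM. Of the 60 genes, 21 had a mean of at least 10 FPKM, 31 lay between 1 and 10 FPKM and 8 were under 1 FPKM, and 59 were above 0 in all 9 libraries. The exception was *ugt-15*, with 0 reads in 1 PA14 library. The 6 highest genes, *ugt-46*, *ugt-22*, *ugt-62*, *ugt-23*, *ugt-44* and *ugt-47*, together held 39.3% of the summed mean. The median coefficient of variation among replicates was 32.3% on OP50, 43.97% on PA14 and 34.4% in the mutant, so neighbours in the order of levels often did not differ beyond their spread.

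**Figure D1:**
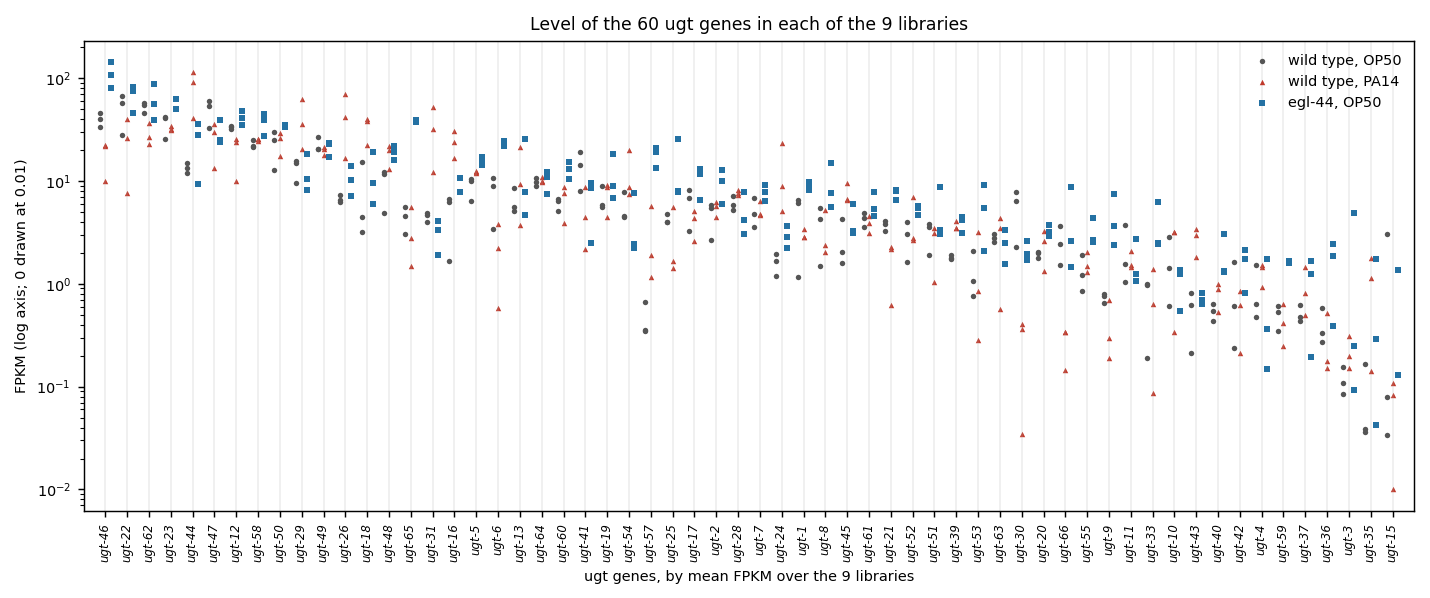
FPKM on a log axis of the 60 *ugt* genes, ordered by their mean over the 9 libraries, with 1 point for each library and a value of 0 drawn at 0.01. The levels fall from a mean of 55.8 FPKM for *ugt-46* to 0.553 FPKM for *ugt-15*, and *ugt-57* and *ugt-65* show the mutant libraries far above the others.

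The leading gene differed between the groups. In WT worms on OP50 the highest level was that of *ugt-62*, 52.7 ± 6.1 FPKM (SD, n = 3), followed by *ugt-22* with 50.4 ± 19.9 FPKM and *ugt-47* with 48.7 ± 14.2 FPKM, which do not differ beyond their SDs. On PA14, *ugt-44* ranked highest with 82.3 ± 37.6 FPKM (SD, n = 3), having been at rank 12 of 67 on OP50. *ugt-26* followed at rank 2 with 43.0 ± 26.8 FPKM, from rank 19 on OP50. In the mutant, *ugt-46* was highest with 110 ± 31 FPKM (SD, n = 3), followed by *ugt-22* with 67.8 ± 19.03 FPKM. *ugt-65* moved from rank 31 in WT worms on OP50 to rank 6 in the mutant, and *ugt-57* from rank 57 to rank 14.

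The summed level of the 60 genes was 588, 589 and 438 FPKM on OP50, 630, 625 and 709 FPKM on PA14, and 723, 888 and 912 FPKM in the mutant. On the deposited scale neither the PA14 nor the mutant sums overlapped with those on OP50. After median-of-ratios scaling, which sets the typical gene equal between libraries, the PA14 sums of 517 to 643 FPKM overlapped with the OP50 sums of 451 to 661 FPKM, while the mutant sums of 696 to 851 FPKM stayed above the OP50 sums of 457 to 610 FPKM. A single gene held a larger share of the sum on PA14 than on OP50. *ugt-44* made up 18.2%, 6.58% and 12.8% of it in the 3 PA14 libraries and between 2.01% and 3.02% on OP50. Without *ugt-44* the sums were 515 to 618 FPKM on PA14 and 425 to 577 FPKM on OP50, and the groups overlapped.

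**Figure D2:**
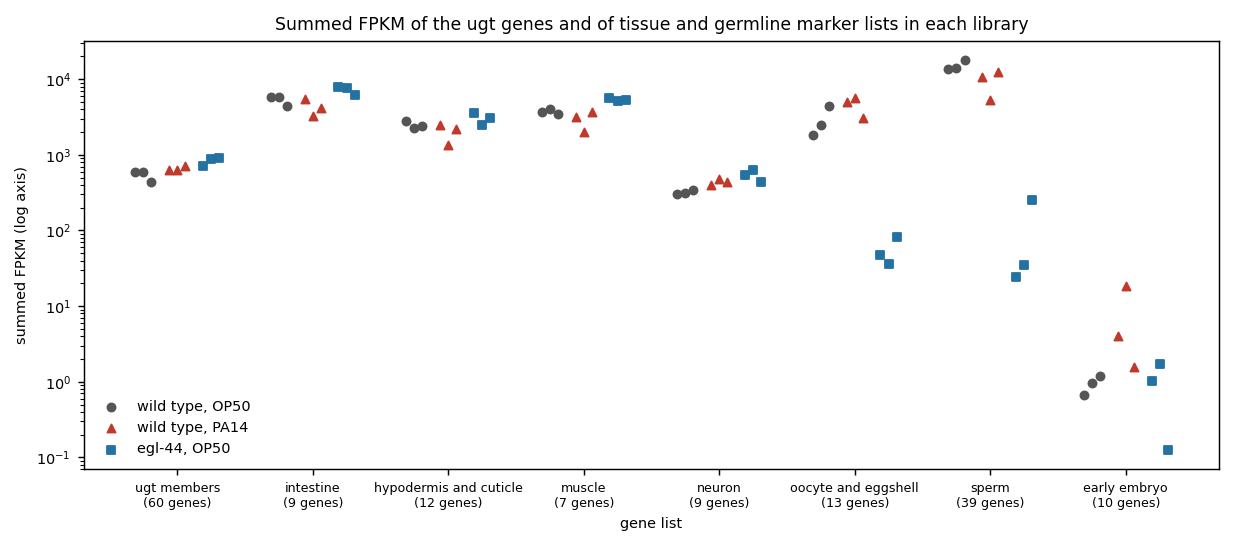
Summed FPKM on a log axis of the 60 *ugt* genes and of 7 tissue and germline marker lists, with 1 point for each library. The *ugt* sum spans 438 to 912 FPKM over all libraries, while the oocyte and eggshell sum is 35.9 to 81.8 FPKM in the *egl-44* libraries against 1838 to 4374 FPKM in WT worms on OP50.

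Between PA14 and OP50, *ugt* genes were called in both directions. Each gene was tested with limma on log2(FPKM + 0.5), and a gene was called when its unadjusted p was under 0.05 and its fold change over 2. The study states the same limits for p and fold change, without saying whether its p was adjusted. All fold changes are on that log2 scale, where the added 0.5 FPKM understates the change of low genes. Of 57 *ugt* genes tested, 11 were called higher on PA14 (19.3%), where 6.99% of all 15760 genes tested were called higher. Another 6 were called lower (10.5%), where 1.78% of all genes were called lower. These background shares hold on the deposited scale. Median-of-ratios scaling gave 10 members higher and 9 lower, with 4.14% and 3.83% of all genes, and quantile normalization gave 10 and 9, with 3.31% and 4.23%. *ugt-3*, *ugt-36* and *ugt-59* were too low to be tested. Among genes called, *ugt-57* and *ugt-35* averaged under 0.5 FPKM on OP50, and *ugt-30* and *ugt-66* on PA14. The filter thus admitted them only through the group where they were higher. Their calls held with no filter. The groups did not overlap for 14 of the 60 genes that were higher and 6 that were lower on PA14, and the shares over all genes were 23.7% and 6.53%. With 3 libraries against 3, an exact permutation test of a single gene cannot give a p below 0.1 (two-sided), so single genes rest on the limma fit.

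The stricter call, a Benjamini-Hochberg adjusted p under 0.05 over all genes tested, was passed by *ugt-44* alone, as higher, with 0.73% of all genes past it as higher, 0.127% as lower and 0.857% in either direction. The limma fit gave 20 *ugt* genes at an unadjusted p under 0.05, and 7 of these were lower on PA14. The 57 genes had a median log2 fold change of 0.09, with 31 higher and 26 lower, and that of all genes was 0.25. Under median-of-ratios scaling these medians were -0.14 and 0.01, and under quantile normalization -0.17 and 0.03, so the sign of the *ugt* median depends on the scale. Relative to all genes the *ugt* median was lower by a similar step in each, with differences of -0.16, -0.16 and -0.20.

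*ugt-44* gave the clearest rise. It measured 11.8, 14.97 and 13.3 FPKM on OP50 and 115, 41.1 and 91.0 FPKM on PA14. Every PA14 library was above every OP50 library, with PA14 replicate 2 the lowest of its group. The log2 fold change was 2.46 (SE 0.38), with a limma adjusted p of 0.0485. Over the alternative settings its log2 fold change stayed between 2.16 and 2.90, with an adjusted p between 0.0121 and 0.228, and its call at the 2-fold limit held in all 15. Of the 6 fits that left out 1 library, the adjusted call was kept without PA14 replicate 2 and lost in the other 5. It was also lost under median-of-ratios scaling, quantile normalization or the replicate block, with no filter, with a pseudocount of 1 FPKM and with voom on recovered reads. Without PA14 replicate 1, 2 *ugt* genes passed the adjusted call.

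The gene beside it rose as well. *ugt-43* and *ugt-44* lie next to each other on the plus strand of chromosome IV (WBcel235, 10464588 to 10471899). *ugt-43* measured 0.214, 0.620 and 0.808 FPKM on OP50 and 3.41, 1.81 and 2.95 FPKM on PA14. The groups did not overlap, at counts of 6 to 21 reads on OP50 and 48 to 78 reads on PA14, and the log2 fold change was 1.63 (SE 0.37, limma adjusted p 0.120). The level of *ugt-43* on PA14 was 2.72 ± 0.82 FPKM (SD, n = 3), far below the 82.3 ± 37.6 FPKM of its neighbour.

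A second adjoining pair that rose was *ugt-18* and *ugt-16*, on the plus strand of chromosome V in a run of 7 *ugt* genes (WBcel235, 12790676 to 12830114). *ugt-18* measured 3.21, 15.3 and 4.47 FPKM on OP50 and 39.5, 38.5 and 22.2 FPKM on PA14, a log2 fold change of 2.31 (SE 0.56, limma adjusted p 0.141). *ugt-16* measured 6.26, 6.70 and 1.65 FPKM on OP50 and 24.1, 16.6 and 30.2 FPKM on PA14, a log2 fold change of 2.32 (SE 0.51, limma adjusted p 0.116). In both genes the groups did not overlap, although OP50 replicate 2 of *ugt-18* was well above the other OP50 libraries. Other genes of the same run did not follow them. *ugt-6*, on the minus strand of this run, was called lower on PA14, *ugt-5* and *ugt-4* were not called, *ugt-3* was not tested, and *ugt-15* measured 0.0338, 0.0784 and 3.06 FPKM on OP50 and at most 0.107 FPKM on PA14.

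5 further genes that rose were highest in PA14 replicate 2. *ugt-31*, on chromosome I, measured 3.95, 4.87 and 4.64 FPKM on OP50 and 12.3, 52.5 and 32.1 FPKM on PA14, a log2 fold change of 2.50 (SE 0.50, limma adjusted p 0.0981). *ugt-26*, also on chromosome I, measured 7.29, 6.29 and 6.52 FPKM on OP50 and 16.8, 70.4 and 41.9 FPKM on PA14, a log2 fold change of 2.38 (SE 0.49, limma adjusted p 0.102). In both genes the OP50 libraries lay close together and the PA14 libraries were spread over a range wider than their mean. *ugt-24* measured 1.182, 1.96 and 1.68 FPKM on OP50 and 5.06, 23.4 and 8.82 FPKM on PA14, a log2 fold change of 2.37 (SE 0.54, limma adjusted p 0.124). *ugt-29* measured 15.8, 14.9 and 9.47 FPKM on OP50 and 20.5, 62.3 and 36.0 FPKM on PA14, a log2 fold change of 1.42 (SE 0.42, limma adjusted p 0.188). The groups did not overlap for either gene. *ugt-57* measured 0.665, 0.351 and 0.359 FPKM on OP50 and 1.15, 5.70 and 1.90 FPKM on PA14, a log2 fold change of 1.62 (SE 0.52, limma adjusted p 0.203), and its call was lost without OP50 replicate 2, at 1.54. The calls of *ugt-31*, *ugt-26*, *ugt-24* and *ugt-29* held without PA14 replicate 2.

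The remaining genes called higher were *ugt-45* and *ugt-35*. *ugt-45* measured 1.59, 2.04 and 4.21 FPKM on OP50 and 6.70, 9.47 and 6.51 FPKM on PA14, without overlap and again highest in replicate 2, a log2 fold change of 1.44 (SE 0.37, limma adjusted p 0.156). *ugt-35*, which is near the limit of 0.5 FPKM, measured 0.167, 0.0389 and 0.0361 FPKM on OP50 and 1.77, 0.142 and 1.14 FPKM on PA14. Its groups overlapped, its log2 fold change was 1.21 (SE 0.50, limma adjusted p 0.244), and its call was lost without any 1 of the 3 OP50 libraries, at 1.32, 1.16 and 1.16. Of the 12 alternative settings in which it was tested, it kept its call in 3.

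**Figure D3:**
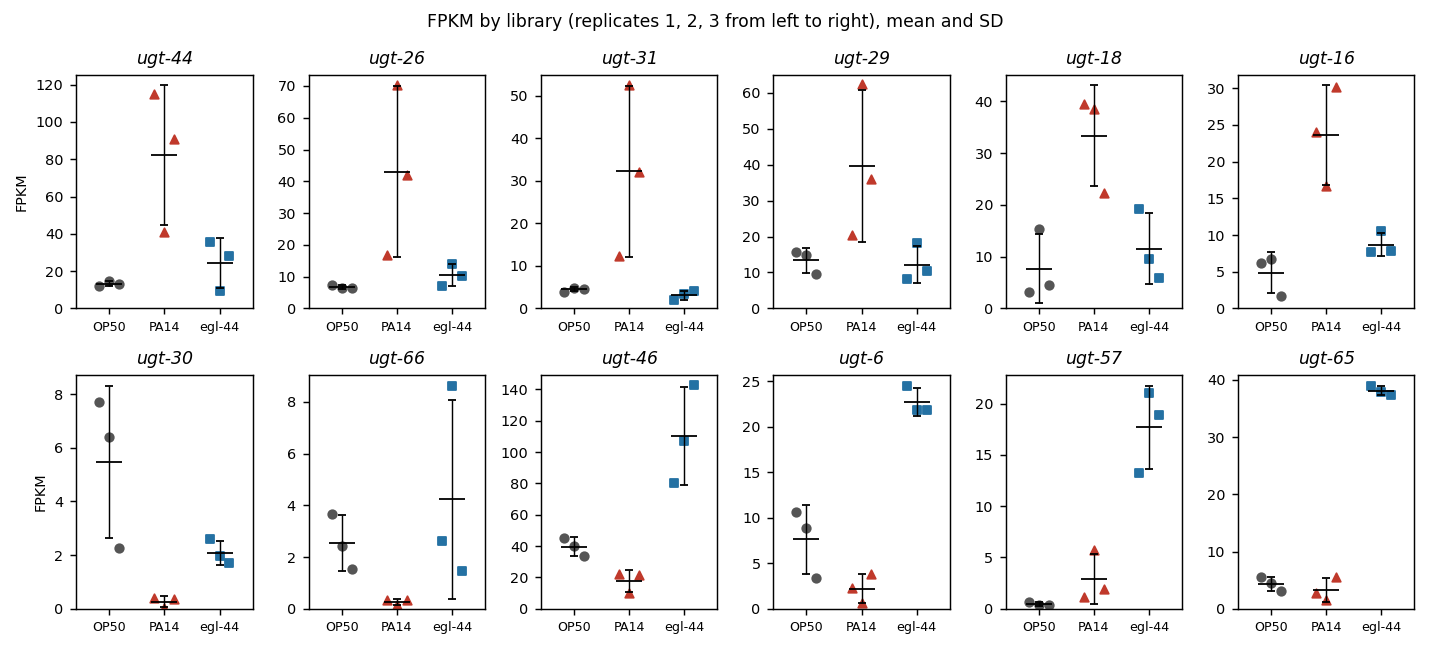
FPKM in each library of 12 *ugt* genes, with points for replicates 1, 2 and 3 from left to right, a bar at the group mean and whiskers of 1 SD. *ugt-44* reaches 115 FPKM on PA14 from at most 14.97 FPKM on OP50, *ugt-30* falls under 0.5 FPKM on PA14, and *ugt-65* lies between 37.4 and 39.0 FPKM in the *egl-44* libraries.

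Genes lower on PA14 included the largest change of the family in this comparison. *ugt-30*, on chromosome V, measured 7.72, 6.40 and 2.28 FPKM on OP50 and 0.405, 0.0350 and 0.364 FPKM on PA14. These levels rested on 234, 167 and 64 reads on OP50 and on 10, 1 and 10 reads on PA14, so the groups were far apart while the PA14 level itself was measured with few reads. The log2 fold change was -2.85 (SE 0.49), with a limma adjusted p of 0.0674. *ugt-66*, on chromosome III, measured 3.66, 2.44 and 1.53 FPKM on OP50 and 0.339, 0.146 and 0.342 FPKM on PA14, at 41 to 106 reads against 4 to 9 reads. Its groups did not overlap and its log2 fold change was -1.92 (SE 0.36, limma adjusted p 0.0829). At the 2-fold limit both calls held in every setting tried in which the genes were tested.

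The other 4 genes called lower depended on single libraries. *ugt-46*, one of the most abundant members, measured 45.4, 39.8 and 33.5 FPKM on OP50 and 22.3, 9.92 and 21.6 FPKM on PA14, without overlap, a log2 fold change of -1.19 (SE 0.33, limma adjusted p 0.177). Its call was lost without PA14 replicate 2, at -0.83. *ugt-21* measured 3.85, 3.27 and 4.12 FPKM on OP50 and 2.28, 0.619 and 2.16 FPKM on PA14, without overlap, a log2 fold change of -1.07 (SE 0.41, limma adjusted p 0.233). Its call was lost without OP50 replicate 1, OP50 replicate 2, OP50 replicate 3 or PA14 replicate 2, at -1.05, -1.15, -1.002 and -0.64. The groups of *ugt-6* and *ugt-41* overlapped. *ugt-6* had a log2 fold change of -1.67 (SE 0.62, limma adjusted p 0.226), and its call was lost without OP50 replicate 1, OP50 replicate 2, PA14 replicate 1 or PA14 replicate 2, at -1.37, -1.51, -1.79 and -1.12. *ugt-41* had a log2 fold change of -1.45 (SE 0.52, limma adjusted p 0.223), and its call was lost without the same 4 libraries, at -1.183, -1.38, -1.45 and -1.0002.

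PA14 replicate 2 was the lowest PA14 library for all 6 genes called lower and for 32 of the 60 members, and the highest for 17. Without it, 13 *ugt* genes were called higher and 2 lower, with 4.89% and 1.09% of all genes called in those directions. *ugt-48* and *ugt-13* were the genes gained, with log2 fold changes of 1.178 and 1.14, and *ugt-30* and *ugt-66* were the genes still called lower. Without PA14 replicate 3, 10 genes were called lower, with 6.33% of all genes called lower. Without OP50 replicate 1 or OP50 replicate 2, 3 were called lower, with 1.04% and 0.91% of all genes.

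Tissue markers were also compared between the OP50 and PA14 libraries. The summed sperm markers were 5328 to 12632 FPKM on PA14 against 13509 to 17848 FPKM on OP50, with 4 of 37 tested called lower and all 37 at a negative fold change, and 1 of 38 called lower without PA14 replicate 2. The 9 intestinal markers summed to 3233 to 5528 FPKM on PA14 against 4375 to 5846 FPKM on OP50, overlapping, and none of them was called. The 7 muscle markers summed to 1995 to 3673 FPKM on PA14 against 3515 to 3983 FPKM on OP50, also overlapping, with the lowest sum in PA14 replicate 2 and none called. The 9 neuronal markers summed to 399 to 485 FPKM against 305 to 342 FPKM without overlap, with *unc-119* called higher at a log2 fold change of 1.02 that was 0.75 and not called without PA14 replicate 2. All 13 oocyte and eggshell markers had a positive fold change with a median of 0.67 and none called, and their sums of 3094 to 5693 FPKM overlapped with OP50. The 12 hypodermal and cuticular markers summed to 1335 to 2479 FPKM on PA14 against 2284 to 2824 FPKM on OP50, overlapping. None was called, with 7 at a positive and 5 at a negative fold change. Over OP50 replicates 1 to 3, *rol-6* fell from 142 to 50.9 and 9.33 FPKM, and *mlt-10* from 98.8 to 29.5 and 7.95 FPKM. *col-19*, *lin-26* and *elt-3* did not fall over these libraries. On PA14, *rol-6* measured 31.5, 4.05 and 109 FPKM. The part of these in the *ugt* differences was not tested.

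Several highly expressed members were not called in the PA14 comparison. *ugt-22* measured 66.1, 56.998 and 28.03 FPKM on OP50 and 26.3, 7.70 and 40.1 FPKM on PA14, a log2 fold change of -1.20 (SE 0.63, limma adjusted p 0.289) with overlapping groups, and it was called without PA14 replicate 3, at -1.69. *ugt-62* measured 57.2, 55.2 and 45.8 FPKM on OP50 and 36.3, 22.9 and 26.6 FPKM on PA14. Its groups did not overlap, but its log2 fold change of -0.89 (SE 0.21, limma adjusted p 0.136) was under the 2-fold limit. It was called lower under median-of-ratios scaling, quantile normalization and without PA14 replicate 1, at -1.14, -1.07 and -1.08. *ugt-47* measured 53.98, 59.5 and 32.7 FPKM on OP50 and 30.03, 13.3 and 36.01 FPKM on PA14, a log2 fold change of -0.94 (SE 0.42, limma adjusted p 0.258), and was called lower under the same scalings and without OP50 replicate 3 or PA14 replicate 3, at -1.19, -1.09, -1.20 and -1.22. *ugt-23*, by contrast, was called in no setting. It measured 40.99, 41.8 and 25.7 FPKM on OP50 and 31.9, 33.96 and 31.4 FPKM on PA14, a log2 fold change of -0.12 (SE 0.22, limma adjusted p 0.725). Of the top 6 genes, *ugt-44* was therefore called higher, *ugt-46* was called lower and the other 4 were not called.

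**Figure D4:**
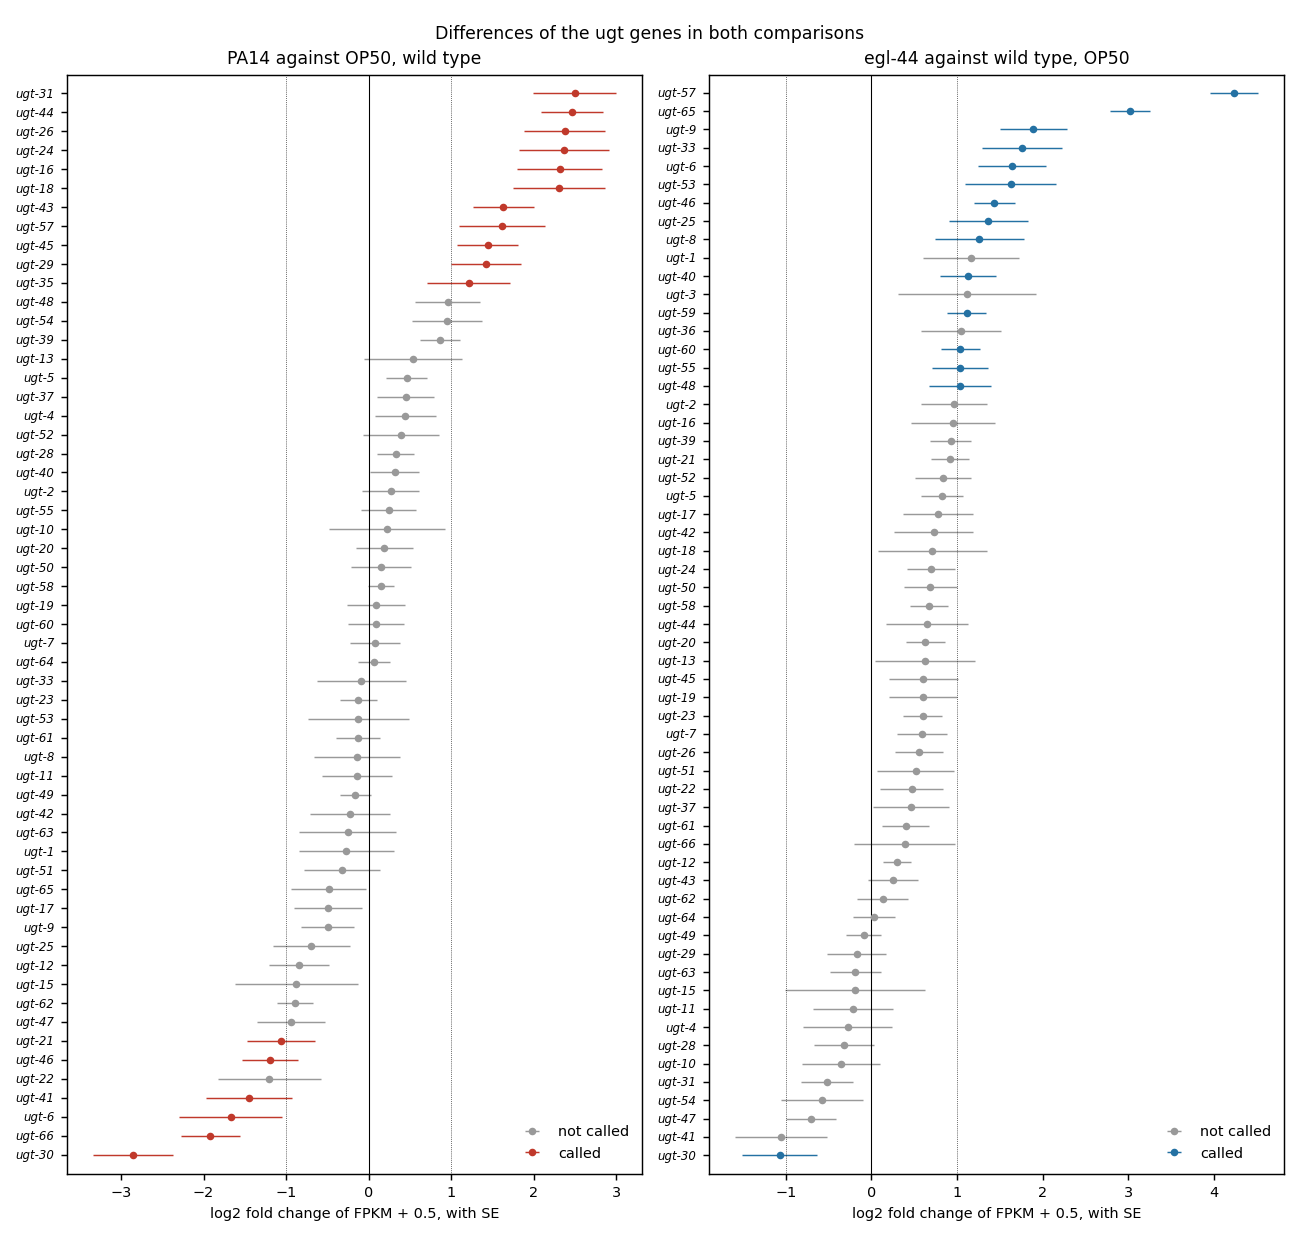
Log2 fold change of FPKM + 0.5 with its SE for the *ugt* genes tested on PA14 against OP50 (left, 57 genes) and in *egl-44* against WT worms (right, 59 genes), coloured where called, with dotted lines at a 2-fold change. The PA14 values run from -2.85 to 2.50 in both directions, while the *egl-44* values run from -1.07 to 4.24 with 46 above 0 and 13 below.

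In the *egl-44* libraries the *ugt* genes called were nearly all higher than in WT worms. Of 59 genes tested, 14 were called higher (23.7%), where 17.9% of all 15488 genes tested were called higher. Only *ugt-30* was called lower (1.69%), where 23.4% of all genes were called lower. The groups did not overlap for 27 genes that were higher in the mutant and for 0 that were lower, against 34.1% and 35.6% of all genes. *ugt-35* was not tested. *ugt-57* and *ugt-59*, both called higher, averaged under 0.5 FPKM in WT worms on OP50. The filter thus admitted them only through the mutant libraries, and their calls held with no filter. The *ugt* genes had a median log2 fold change of 0.65, with 46 higher and 13 lower, and that of all genes was 0.12. These medians were 0.53 and 0.01 under median-of-ratios scaling and 0.95 and 0.31 under quantile normalization, so the *ugt* median was above that of all genes in each.

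The adjusted call was passed by 18 *ugt* genes, all of them higher in the mutant, where 26.3% of all genes passed it as higher and 31.5% as lower. Of these, 13 had a fold change over 2 and 5, namely *ugt-58*, *ugt-5*, *ugt-21*, *ugt-39* and *ugt-20*, had a smaller one. By limma, 2 *ugt* genes that were lower had an unadjusted p under 0.05, and neither passed the adjusted call. Without OP50 replicate 2, 8 genes passed it, with 43.2% of all genes past it in either direction. Over all genes, 57.8% passed the adjusted call in either direction in this comparison, which is the background for every value below.

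The largest change was that of *ugt-57*, on the X chromosome. It measured 0.665, 0.351 and 0.359 FPKM in WT worms on OP50 and 13.2, 20.99 and 18.9 FPKM in the mutant. This is 10 to 22 reads against 450 to 578 reads, with every mutant library far above every WT library. The log2 fold change was 4.24 (SE 0.28, limma adjusted p 0.000195). On PA14, the same gene had risen to 2.92 ± 2.44 FPKM (SD, n = 3), below its level in the mutant.

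*ugt-65*, on chromosome IV, measured 5.52, 4.53 and 3.06 FPKM in WT worms on OP50 and 39.0, 37.9 and 37.4 FPKM in the mutant. The mutant libraries were almost equal and far above the others, with a log2 fold change of 3.02 (SE 0.24, limma adjusted p 0.00027). On PA14 it measured 2.80, 1.48 and 5.52 FPKM and overlapped with OP50. The span of *ugt-65* also contains *col-130*, a collagen gene on the opposite strand, but the exons of the annotated genes share 0 bases. *col-130* measured 323, 261 and 31.3 FPKM on OP50, 43.4, 9.38 and 185 FPKM on PA14, and 252, 278 and 207 FPKM in the mutant. Within OP50 and within PA14 the libraries had the same order for both genes. In the mutant the *col-130* values lay within their OP50 range, while those of *ugt-65* were above it. The part of *col-130* reads in the *ugt-65* values was not tested.

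*ugt-46*, the most abundant member, was higher in the mutant and lower on PA14. It measured 45.4, 39.8 and 33.5 FPKM in WT worms on OP50 and 80.3, 107 and 143 FPKM in the mutant, a log2 fold change of 1.44 (SE 0.24, limma adjusted p 0.00314). *ugt-6* had the same pair of directions. It measured 10.7, 8.83 and 3.40 FPKM on OP50, 2.23, 0.581 and 3.78 FPKM on PA14, and 24.5, 21.9 and 21.9 FPKM in the mutant, with a log2 fold change of 1.65 (SE 0.40, limma adjusted p 0.0125) in the mutant. For both genes every mutant library was above every WT library.

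2 low members also stood above WT worms in each mutant library and kept their call at the 2-fold limit in every setting in which they were tested. *ugt-9* measured 0.765, 0.646 and 0.789 FPKM on OP50 and 2.40, 7.41 and 3.65 FPKM in the mutant, a log2 fold change of 1.89 (SE 0.39, limma adjusted p 0.00725). *ugt-33* measured 0.986, 0.981 and 0.190 FPKM on OP50 and 2.46, 6.21 and 2.48 FPKM in the mutant, a log2 fold change of 1.76 (SE 0.46, limma adjusted p 0.0173). In both, replicate 2 of the mutant was well above its other libraries.

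The other 8 genes called higher lost their call at the 2-fold limit in at least 1 setting. They were *ugt-53*, *ugt-25*, *ugt-8*, *ugt-40*, *ugt-59*, *ugt-60*, *ugt-55* and *ugt-48*, with log2 fold changes from 1.03 to 1.62, and in each of them the mutant libraries lay above the OP50 libraries. *ugt-25* measured 3.99, 4.80 and 3.97 FPKM on OP50 and 7.78, 25.5 and 7.93 FPKM in the mutant, so 1 mutant library stood far above the other two. Its log2 fold change was 1.36 (SE 0.46, limma adjusted p 0.0407). Its call was lost without *egl-44* replicate 2, at 0.82, and also without OP50 replicate 1 or OP50 replicate 3, at 1.33 and 1.32. *ugt-60*, by contrast, measured 6.33, 6.67 and 5.10 FPKM on OP50 and 15.2, 10.5 and 13.1 FPKM in the mutant, a log2 fold change of 1.04 (SE 0.23, limma adjusted p 0.00919) that fell just under the 2-fold limit without OP50 replicate 3 or *egl-44* replicate 1, at 0.93 and 0.92. *ugt-59* measured 0.602, 0.350 and 0.528 FPKM on OP50 and 1.64, 1.67 and 1.59 FPKM in the mutant, and kept its call, at a log2 fold change of 1.11 (SE 0.23, limma adjusted p 0.00691), without any single library.

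The calls of the remaining 5 genes depended on which library was left out. *ugt-53* had a log2 fold change of 1.62, and its call was lost without OP50 replicate 2, OP50 replicate 3, *egl-44* replicate 2 or *egl-44* replicate 3, at 1.56, 1.40, 1.54 and 1.19. *ugt-8* had 1.26, and its call was lost without the same 4 libraries, at 1.41, 0.79, 0.89 and 1.35. *ugt-48* had 1.03, and its call was lost without OP50 replicate 3, *egl-44* replicate 2 or *egl-44* replicate 3, at 0.63, 1.02 and 0.93. *ugt-55* had 1.03, and its call was lost without OP50 replicate 1, OP50 replicate 2 or *egl-44* replicate 2, at 0.84, 1.02 and 0.82. *ugt-40* had 1.13, and its call was lost without *egl-44* replicate 2, at 0.82.

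*ugt-30*, the gene with the largest drop on PA14, measured 2.59, 1.97 and 1.71 FPKM in the mutant against 7.72, 6.40 and 2.28 FPKM in WT worms on OP50. The groups overlapped, the log2 fold change was -1.07 (SE 0.44, limma adjusted p 0.0723), and the call was lost without OP50 replicate 1, OP50 replicate 2 or any 1 of the mutant libraries, at -0.77, -0.90, -1.21, -1.05 and -0.97. *ugt-44*, the leading gene on PA14, measured 35.6, 9.26 and 28.1 FPKM in the mutant. This overlapped with OP50, with a log2 fold change of 0.65 (SE 0.48, limma adjusted p 0.268) that was called only without *egl-44* replicate 2, at 1.22. *ugt-26* measured 7.07, 13.97 and 10.2 FPKM in the mutant, a log2 fold change of 0.55 (SE 0.28, limma adjusted p 0.125). *ugt-26*, *ugt-30* and *ugt-44* are the *ugt* genes that the study listed as carrying a TEAD motif, a list drawn from genes called on PA14 in these libraries, so their change on PA14 is not independent evidence.

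Most somatic markers had a positive fold change in the *egl-44* libraries. This held for 8 of 9 intestinal, 10 of 12 hypodermal and cuticular, 7 of 7 muscle and 9 of 9 neuronal markers. The 9 intestinal markers summed to 6131 to 7856 FPKM in the mutant against 4375 to 5846 FPKM on OP50. Of these, 2 were called higher (22.2%), where 17.9% of all genes were called higher. The 2 called were *elt-2*, a GATA factor of the intestine, and *ges-1*, a gut esterase. The intestinal markers *elt-7*, *vha-6*, *act-5*, *ifb-2*, *erm-1*, *asp-1* and *spl-1* were not called. Among 12 markers of hypodermis and cuticle, *col-19* was called lower and 7 were called higher. The 7 were *rol-6*, *dpy-7*, *sqt-3*, *noah-1*, *mlt-10*, *mlt-11* and *qua-1*, while *lin-26*, *elt-1*, *elt-3* and *bli-1* were not called. For muscle 1 of 7 markers was called higher, and for neurons 5 of 9. All 13 oocyte and eggshell markers and all 37 sperm markers tested were called lower. None of the intestinal markers was at 0 throughout a group. The part of these differences in the *ugt* values was not tested.

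In the genome, the 60 members lie mostly on chromosome V, with 36 genes, followed by chromosome IV with 12, chromosomes X and I with 4 each, chromosome III with 3 and chromosome II with 1. Of all 67 *ugt* genes, 37 stand in 10 runs in which neighbours are less than 20 kb apart. The largest run holds 8 genes on chromosome V (WBcel235, 4887165 to 4911399), and 6 of these are members. None of them was called on PA14, and *ugt-9* and *ugt-8* were called higher in the mutant. The run of 4 genes on chromosome I contains *ugt-26*, called higher on PA14, and *ugt-25*, called higher in the mutant, while *ugt-28* between them was called in neither. Differences between genes of the same run were not tested.

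Parts of some members overlap other genes. The library kit named in the labels does not mark strand, so in a shared stretch the reads of a gene and its partner cannot be told apart. Of the 60 members, 12 overlap another coding gene and 11 share exonic bases with it. The largest shared stretches were 340 bases of *ugt-50* with *nhr-26* and 309 bases of *ugt-22* with *srz-29*, and both partners measured at most 0.130 FPKM. Among genes called, *ugt-48* shares 121 bases with *cft-1*, which measured at most 2.01 FPKM. *ugt-25* shares 26 bases with *mlst-8*, which measured 14.7 to 52.5 FPKM over the libraries. *ugt-59* shares 22 bases with *sir-2.1*, which measured 15.8 to 41.1 FPKM, above *ugt-59* in every library. *ugt-40* shares 42 bases with *ugt-37* and *ugt-35* shares 3 bases with *aqp-6*. *ugt-55* shares 18 bases with another gene on the same strand, which was not analysed here. The sources used here do not say how reads matching several near-identical *ugt* genes were counted, so single members of a run are uncertain to that extent.

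Other genes of the same chemistry were read from lists. The genes that make and carry UDP-sugars and related nucleotide sugars gave 0 called of 16 tested on PA14 in either direction by limma, and 1 called higher without PA14 replicate 2. Of all genes, 6.99% were called higher and 1.78% lower on PA14, and 4.89% higher without PA14 replicate 2. *sqv-4*, which encodes the UDP-glucose dehydrogenase that makes UDP-glucuronic acid, measured 67.9, 68.0 and 85.5 FPKM on OP50 and 95.1, 96.5 and 82.7 FPKM on PA14, overlapping, a log2 fold change of 0.31 (SE 0.15, limma adjusted p 0.28). In the mutant it measured 88.0, 50.01 and 67.9 FPKM and also overlapped with OP50. There, 5 of 19 genes of this list were called higher (26.3%) and 1 lower (5.26%), against 17.9% and 23.4% of all genes. The genes called higher were *rml-3*, *rml-4* and *rml-5*, of nucleotide-rhamnose synthesis, and the predicted nucleotide-sugar transporters *nstp-3* and *nstp-7*. Of these, *nstp-7* was low and its groups overlapped (limma adjusted p 0.0591). It measured 1.05, 0 and 0.0665 FPKM on OP50 and 0.836, 2.03 and 10.1 FPKM in the mutant. The gene called lower was *sqv-1*, which turns UDP-glucuronic acid into UDP-xylose, at a log2 fold change of -1.36 (SE 0.19, limma adjusted p 0.00153).

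Efflux pumps, the ABC transporters that carry drugs and conjugates out of cells, gave 4 called higher of 21 tested on PA14 and 0 lower. *pgp-5*, a P-glycoprotein, measured 3.63, 5.13 and 3.03 FPKM on OP50 and 37.2, 195 and 85.3 FPKM on PA14, without overlap, a log2 fold change of 4.30 (SE 0.57, limma adjusted p 0.0373). The others were *pgp-7*, *pgp-6* and *mrp-4*, with log2 fold changes of 3.35, 1.81 and 1.12. The groups of *mrp-4* overlapped, and it was not called without PA14 replicate 2, at 0.96. Without that library 3 of 21 efflux pumps were called higher and 0 lower. In the mutant *pgp-10* was called higher, at 1.29, and *mrp-4* and *mrp-7*, multidrug resistance proteins, were called lower, at -1.07 and -1.49, of 20 tested. Of the phase I cytochrome P450 (*cyp*) genes, 7 of 53 tested were called higher and 1 lower on PA14, and 18 of 53 higher and 4 lower in the mutant. Without PA14 replicate 2 the PA14 counts were 3 of 49 higher and 1 lower. Of the glutathione S-transferase (*gst*) genes, the other large phase II family, 1 of 39 was called higher and 4 lower on PA14, and 15 of 39 higher and 0 lower in the mutant. Without PA14 replicate 2 the PA14 counts were 3 higher and 2 lower. These shares are to be read against the same 6.99% and 1.78% of all genes on PA14 and 17.9% and 23.4% in the mutant.

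Among 17 regulators of detoxification genes, 1 was called higher on PA14 (5.88%), where 6.99% of all genes were called higher. In the mutant 4 were called higher (23.5%), where 17.9% of all genes were. In either comparison 0 were called lower, against 1.78% and 23.4% of all genes. *pqm-1*, a zinc finger factor of stress responses, measured 19.8, 26.6 and 30.9 FPKM on OP50 and 49.9, 56.5 and 47.9 FPKM on PA14, without overlap, a log2 fold change of 1.002 (SE 0.20, limma adjusted p 0.0997), and it was not called without PA14 replicate 2. The genes called higher in the mutant were *ahr-1*, the aryl hydrocarbon receptor that in mammals senses xenobiotics, its partner *aha-1*, the nuclear hormone receptor *daf-12* and *elt-2*, with log2 fold changes of 1.03, 1.02, 2.06 and 1.27. *ahr-1* was low, with a mean of 0.257 FPKM on OP50, and *elt-2* is also on the list of intestinal markers.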

How the data were processed

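Total RNA of whole worms was sequenced in 9 libraries, 3 for each of the 3 groups, which were taken from the titles in the labels. The values deposited by the authors were FPKM for 20541 genes in each library. The submitters' processing notes name Bowtie2 2.2.3, TopHat2 2.0.12, HTSeq 0.6.1 and DESeq 1.18.0 and the genome build WBcel235, without saying what each was used for. Whole reads could be recovered from the steps of the FPKM values in each library, which gave the depths, between 13638251 and 17830345 reads in genes.

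Gene identifiers were matched to WormBase symbols, found for 19587 of them, and to the Ensembl annotation of WBcel235, which held all 60 members. Each comparison was fitted on its own 6 libraries with limma 3.58.1 in R 4.3.3 (linear model and empirical Bayes with a trend) on log2(FPKM + 0.5), over all genes that averaged 0.5 FPKM or more in them. A call required an unadjusted p under 0.05 together with a more than 2-fold change, and a stricter call a Benjamini-Hochberg adjusted p under 0.05 over all genes tested. Counts over the members are descriptions, set beside the share called among all genes. Python 3.11.15 was used for tables and plots.

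The members and gene lists were chosen with earlier results of these data known. Genes named with their values were, in each comparison, called members whose groups do not overlap, up to 15 in a direction, the 6 members with the highest mean, the 3 *ugt* genes on the study's list of genes with a TEAD motif, and the *ugt* genes next to the limit of 0.5 FPKM. *ugt-6* and *ugt-41* on PA14, *ugt-35*, *ugt-30* in the mutant, the overlapping genes and the genes of the pathway lists were named after their values were seen. Alternatives were other pseudocounts, filters, scalings and fold limits, a fit of all 9 libraries, a fit of the recovered reads with voom, a replicate block and leaving out each library.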

Additional observations from a re-analysis of the deposited data

How the results depend on the processing

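No called gene turned its direction under an alternative. Over the named genes in both comparisons, 828 alternative values kept their side of the call, 63 lost the call and 19 gained it. For PA14 against OP50, 11 members were called higher, 6 lower and 1 past the adjusted p. A fold change over 4 left 6 higher and 1 lower, and a mean of at least 5 FPKM left 2 lower of fewer genes tested. The adjusted count was 7 in 1 fit of 9 libraries and 0 with median-of-ratios scaling, quantile normalization, no filter, a pseudocount of 1 FPKM or voom on recovered reads. The members' median of 0.09 was -0.14 and -0.17 under the 2 scalings. Leaving out 1 library gave 10 to 13 higher, 2 to 10 lower, 0 to 2 past the adjusted p and medians from -0.05 to 0.21.

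For *egl-44* against WT worms, 14 members were called higher, 1 lower and 18 past the adjusted p. The count of higher members was 7 with a mean of at least 5 FPKM, 9 with a pseudocount of 1 FPKM, 24 under quantile normalization and 2 at a fold change over 4. Over all genes, quantile normalization called 28.0% higher against 17.9%, and median-of-ratios scaling 14.8%, with 10 members higher. The count of lower members was 0 with the mean of at least 5 FPKM, the pseudocount of 1 FPKM, quantile normalization and the fold change over 4, with no filter, a pseudocount of 0.1 FPKM or voom. The adjusted count was 10 with a mean of at least 5 FPKM and 28 under quantile normalization, where the median of 0.65 was 0.95. Leaving out 1 library gave 10 to 16 higher, 0 to 1 lower, 8 to 16 past the adjusted p and medians from 0.54 to 0.76. Apart from the stricter filter and fold limit, the cause of these changes was not tested.

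Over all genes, the adjusted call on PA14 was passed by 135 genes, and by 3 to 327 over the alternatives. Scaling moved the share of higher among called genes from 79.7% to 52.0% and 43.9% on PA14, and from 43.4% to 36.9% and 59.2% in *egl-44*, under median-of-ratios scaling and quantile normalization.

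Whether replicate numbers pair the libraries was not settled. Deviations of same-numbered libraries from their group means correlated at -0.19, -0.24 and -0.55 between PA14 and OP50. Between *egl-44* and OP50 they correlated at 0.083, 0.066 and 0.095. For libraries of unlike number the values ran from -0.32 to 0.50 and from -0.19 to 0.21. Deviations from the mean of 3 libraries must sum to 0, so these values cannot exclude pairing. With the replicate block, 10 members were called higher, 4 lower and 0 past the adjusted p on PA14, with a median of 0.09, and 13, 1 and 15 in *egl-44*, with a median of 0.65. Low levels rest on few reads, 1 to 10 for *ugt-30* on PA14.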
